A study of Mus musculus with 6 samples.

Results

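The genes described here encode the AP-1 transcription factors Jun, Junb, Jund, Fos, Fosb and Fosl2, the related basic leucine zipper (bZIP) factors Batf and Bach2, and the interferon regulatory factors Irf4 and Irf8. They were chosen by name as AP-1 factors and their partners. All 10 had a row among the 15445 genes of the count table, and all 10 passed the low-count filter. The groups were 3 libraries of CD25-high and 3 libraries of CD25-low CD4+ T cells from the spleen of C57BL/6 mice, taken on day 5 of an infection with LCMV (lymphocytic choriomeningitis virus). Both groups share the infection and the transgenic T cell receptor, a single specificity, and both were sorted on CD4, Thy1.1 and CD25. The labels name neither the transgenic line nor the age of the animals, and do not say whether a library is 1 animal or a pool. The p-values therefore reflect how these libraries vary, and that variation may be technical. No uninfected or naive cells were compared.

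AP-1 is a dimer of a Jun protein with a Fos, Jun or BATF protein, and it is switched on by T cell receptor and cytokine signals. In lymphocytes BATF-Jun dimers bind together with IRF4 or IRF8 at composite DNA elements, where they act on effector and helper genes. BACH2 binds AP-1-like sites as a repressor and is known for holding lymphocytes back from effector differentiation. IRF4 is induced in proportion to receptor signal strength and drives the expansion of activated T cells.

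Total counts were 16787233 to 18847288 in CD25-high and 18810599 to 23567066 in CD25-low libraries. Il2ra, which encodes CD25, had 432 to 1536 CPM (counts scaled to library size) in CD25-high and 20.7 to 35.7 CPM in CD25-low libraries, so each library carried the transcript level its label names. The T cell genes Cd3e (1201 to 1313 CPM in the CD25-high, against 1182 to 1680 CPM in the CD25-low libraries) and Cd4 (563 to 579 CPM in the CD25-high, against 474 to 788 CPM in the CD25-low libraries) were abundant throughout. They are 2 of 9 listed, of which 3 had a log2 fold change above 0 and 6 below. The groups did not overlap for 3 of the 9, Cd3d and Cd3g among them, all lower in CD25-high cells, against 9.54% of tested genes. Thy1, named after its values were seen, had 97.8, 270 and 274 CPM in CD25-high, against 54.0, 206 and 207 CPM in CD25-low libraries. Thy1 was lowest in the libraries numbered 1 of both groups. Libraries with the same number in both groups deviated together from their group means, most clearly those numbered 1 (correlation 0.341), which stood apart from the others. For numbers 2 and 3 the correlations were 0.187 and 0.157, little above the 0.133 of CD25-high library 2 with CD25-low library 3. Pairing by number was thus taken from these same data, is weak for libraries 2 and 3, and has no label behind it. Where adding the library number to the model as a replicate block changes a call, both results are given.

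None of the 10 genes passed an edgeR adjusted p of 0.05 in the comparison of CD25-high with CD25-low cells, where 0.655% of 12987 tested genes passed. At an unadjusted p under 0.05 there were 3 of the 10, Jun, Irf4 and Bach2, against 11.1% of all tested genes. With the replicate block Irf4 passed, 1 of 10, against 4.63% of tested genes. DESeq2 called Jun, 1 of 10, against 2.7% of its tested genes, and limma voom called 0 of 10, against 0.724%. The libraries of the groups did not overlap for Jun and Irf4, which were higher in CD25-high cells, nor for Fos, which was lower there. Such separation was seen for 7.41% of tested genes in the higher and 9.54% in the lower direction. The direction was the same in all 3 numbered pairs for 5 of the 10, higher for Jun, Junb and Irf4 and lower for Fos and Irf8, against 40.6% of tested genes. The median log2 fold change of the 10 was -0.23, beside 0.01 for all tested genes.

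**Figure D1:**
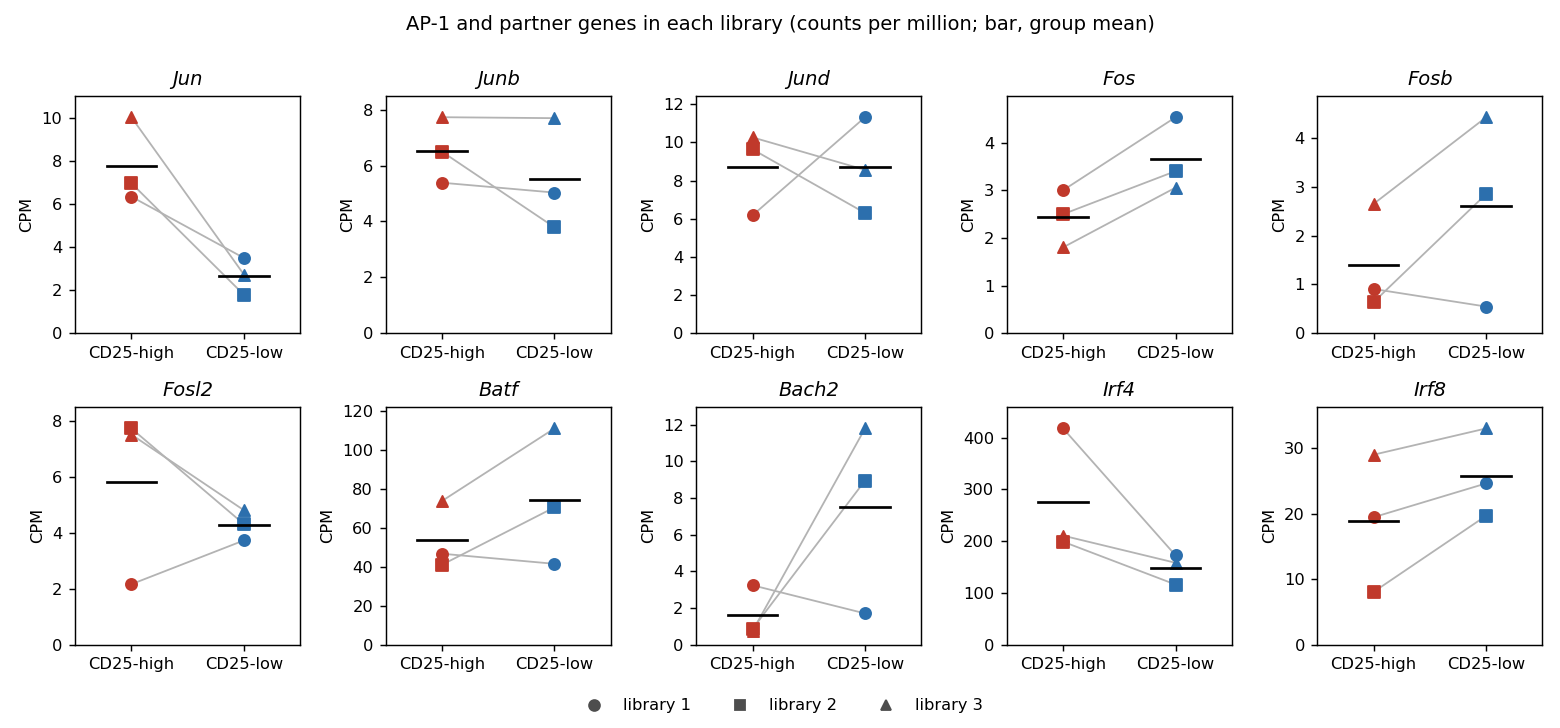
Expression of the 10 genes in each library, in CPM on linear axes that start at 0, with CD25-high libraries in red and CD25-low libraries in blue. Symbols mark libraries 1, 2 and 3, grey lines join libraries of the same number, and black bars are group means of 3. Jun and Irf4 separate the groups upward in CD25-high cells and Fos downward, while Bach2 libraries 1 run against libraries 2 and 3.

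Jun, the founding AP-1 subunit, had 6.35, 6.97 and 10.04 CPM in the CD25-high, against 3.50, 1.79 and 2.73 CPM in the CD25-low libraries. Every CD25-high library lay above every CD25-low library. The counts behind these values were 112 to 178 reads in CD25-high and 42 to 66 reads in CD25-low libraries. The log2 fold change was 1.54 ± 0.44 (SE), a 2.92-fold difference of fitted levels, with an edgeR adjusted p of 0.204. The adjusted p was 0.0315 with DESeq2 and 0.0631 with the replicate block. With the block it was 0.0497 without pair 1, 0.335 without pair 2 and 0.239 without pair 3, a pair being the libraries of 1 number. The gene is a single exon at 95049034 to 95052222 of chromosome 4, minus strand (GRCm38, the assembly of mm10). It shares 232 exonic bases with the antisense gene Junos, which had 3 to 25 reads in CD25-high and 8 to 43 reads in CD25-low libraries. The Junos log2 fold change of -1.11 ± 0.9997 (adjusted p 0.75) pointed the other way from that of Jun.

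The Jun promoter is shown because Jun had the smallest p-value of the 10 genes and is known to respond to its own product through an AP-1-like site. The window holds 250 bases before and 50 bases after the transcription start given by RefSeq (GRCm38.p6, minus strand, chr4:95052173-95052472), written 5′ to 3′ in the direction of transcription, with motif matches in capitals.
Jun: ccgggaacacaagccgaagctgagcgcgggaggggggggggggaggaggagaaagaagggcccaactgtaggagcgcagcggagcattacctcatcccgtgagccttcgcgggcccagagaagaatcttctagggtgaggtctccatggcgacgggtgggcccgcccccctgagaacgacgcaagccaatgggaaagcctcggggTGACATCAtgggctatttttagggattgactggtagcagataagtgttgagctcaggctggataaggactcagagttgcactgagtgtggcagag
The capitals mark TGACATCA, an 8-base variant of the AP-1 element, at 45 bases before the start. The same letters occur on either strand in 3.619% of 32851 RefSeq promoter windows of this length. The window holds neither the 7-base AP-1 element TGANTCA, found in 7.808% of windows, nor the cyclic AMP element TGACGTCA, found in 1.79%.

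Junb, a Jun protein that is a weaker activator than Jun on many promoters, had 5.38, 6.50 and 7.73 CPM in the CD25-high, against 5.03, 3.79 and 7.69 CPM in the CD25-low libraries. Its groups overlapped, and the log2 fold change was 0.25 ± 0.41 with an edgeR adjusted p of 0.88. Junb shares 173 exonic bases with Prdx2 on the opposite strand, which had 25.3 to 41.5 CPM in the CD25-high, against 28.1 to 51.7 CPM in the CD25-low libraries. Jund, the Jun protein present in most resting cells, had 6.18, 9.64 and 10.3 CPM in the CD25-high, against 11.3, 6.30 and 8.56 CPM in the CD25-low libraries. The group means were 8.69 ± 2.20 CPM in CD25-high, against 8.73 ± 2.51 CPM in CD25-low cells (n = 3 each, SD). The Jund log2 fold change was -0.0042 ± 0.37, and its sign depended on the scaling method. Jund shares 877 of its 1668 exonic bases with the antisense gene Gm11175, which had only 8 to 53 reads per library. The strand setting of the counting is not given in the sources used here. Reads in the shared bases of these overlapping genes, and of Jun and Junos, therefore cannot be told apart.

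Fos, the immediate early partner of Jun, had 3.004, 2.50 and 1.80 CPM in the CD25-high, against 4.54, 3.41 and 3.06 CPM in the CD25-low libraries. The groups did not overlap, but CD25-high library 1 and CD25-low library 3 lay next to each other. With 32 to 53 reads in CD25-high and 74 to 83 reads in CD25-low libraries, the log2 fold change was -0.59 ± 0.49, with an edgeR adjusted p of 0.725. The Fos promoter is shown beside that of Jun because the groups separated in opposite directions for these dimer partners (GRCm38.p6, plus strand, chr12:85473640-85473939). Its capitals mark a TATA box.
Fos: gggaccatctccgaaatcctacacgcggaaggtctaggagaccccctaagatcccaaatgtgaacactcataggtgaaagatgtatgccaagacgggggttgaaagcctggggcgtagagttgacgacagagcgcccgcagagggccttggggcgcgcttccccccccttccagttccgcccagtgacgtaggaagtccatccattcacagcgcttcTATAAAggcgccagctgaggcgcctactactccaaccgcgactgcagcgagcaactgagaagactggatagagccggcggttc
The match TATAAA begins 33 bases before the start. These letters occur on either strand in 13.62% of promoter windows. The Fos window holds none of TGANTCA, TGACGTCA or TGACATCA.

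Fosb, another Fos protein, varied 8.09-fold between its lowest and highest library. It had 0.907, 0.639 and 2.65 CPM in the CD25-high, against 0.547, 2.85 and 4.43 CPM in the CD25-low libraries. These rest on 10 to 107 reads, and the log2 fold change was -0.90 ± 0.83 (edgeR adjusted p 0.759). Fosl2, which encodes the longer-lived Fos protein FRA2, had 2.15, 7.72 and 7.50 CPM in the CD25-high, against 3.72, 4.30 and 4.80 CPM in the CD25-low libraries. CD25-high library 1 lay below all CD25-low libraries, and CD25-high libraries 2 and 3 above them. The Fosl2 log2 fold change was 0.44 ± 0.52 (edgeR adjusted p 0.822).

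Immediate early genes respond to cell handling as well as to receptor signals, so their levels are given beside those of Fos and Jun. The summed level of 19 measured immediate early and handling-stress genes, chaperones among them, was 545 to 707 CPM in the CD25-high, against 588 to 713 CPM in the CD25-low libraries. The chaperone Hspa8 alone gave 117 to 190 CPM in the CD25-high, against 92.8 to 125 CPM in the CD25-low libraries. Of 18 tested, 0 passed the edgeR test, and limma voom called 0. At an unadjusted p under 0.05 there were 5, against 11.1% of all tested genes, and DESeq2 called Egr1 and Egr3, against 2.7% of its tested genes. With the replicate block 3 were lower, against 2.9% of all tested genes. These were Egr1 (58.3, 16.3 and 30.8 CPM in the CD25-high, against 115, 77.1 and 107 CPM in the CD25-low libraries, adjusted p 0.156, and 0.000992 with the block), Egr3 (0.0991 and 0.0475) and Zfp36 (0.442 and 0.0447). Egr3 had 2, 1 and 3 reads in CD25-high libraries and 17, 47 and 48 reads in CD25-low libraries. The calls of Egr3 and Zfp36 with the block were lost with any pair left out (adjusted p 0.0857 to 0.321 and 0.0678 to 0.225), and that of Egr1 was kept. Egr1 and Egr3 are early growth response factors induced through the T cell receptor, and Zfp36, named after its values were seen, encodes an RNA-decay factor. The 2 most abundant by the mean over all 6 libraries, the chaperones Hspa8 and Dnajb1, had log2 fold changes of 0.54 ± 0.23 and 0.08 ± 0.28 (edgeR adjusted p 0.43 and 0.95). The part of cell handling in the Fos and Jun values was not tested.

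Batf, the bZIP factor that pairs with Jun proteins and recruits IRF4, had 46.6, 40.9 and 73.7 CPM in the CD25-high, against 41.5, 70.5 and 111 CPM in the CD25-low libraries. The groups overlapped, with CD25-low libraries 1 and 2 inside the range of the CD25-high libraries. The log2 fold change was -0.47 ± 0.35, with an edgeR adjusted p of 0.684. Within pairs of the same number, the log2 difference of CD25-high from CD25-low was 0.17 in pair 1, -0.78 in pair 2 and -0.59 in pair 3. Without pair 1 and with the block, the log2 fold change was -0.69 and the adjusted p 0.0667. Batf (chromosome 12, plus strand, 85686669 to 85709087) shares no exonic bases with another annotated gene.

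Bach2, the AP-1-site repressor, had 3.23, 0.852 and 0.733 CPM in the CD25-high, against 1.70, 8.94 and 11.8 CPM in the CD25-low libraries. CD25-low libraries 2 and 3 stood above all other libraries, and in the libraries numbered 1 the order was the opposite. The counts were 57, 16 and 13 reads in CD25-high libraries and 31, 210 and 285 reads in CD25-low libraries. Over all libraries the log2 fold change was -2.22 ± 0.79, with an edgeR adjusted p of 0.323, and 0.179 with the block. Within pairs the log2 difference was 0.77 in pair 1, -2.80 in pair 2 and -3.32 in pair 3. Without pair 1 and with the block, the log2 fold change was -3.69 ± 0.48 and the adjusted p 0.00585. Without pair 2 or pair 3 the adjusted p with the block was 0.544 or 0.595. Bach2 (chromosome 4, plus strand, 32238804 to 32586108) shares 537 exonic bases with the antisense gene Bach2os, which was not analysed here.

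The Bach2 window is shown because Bach2 had the largest difference of the 10 genes in fitted level. It lies at a RefSeq start that is 178631 bases downstream of the gene's first annotated base in GENCODE M21, and no other Bach2 start was used (GRCm38.p6, plus strand, chr4:32417185-32417484).
Bach2: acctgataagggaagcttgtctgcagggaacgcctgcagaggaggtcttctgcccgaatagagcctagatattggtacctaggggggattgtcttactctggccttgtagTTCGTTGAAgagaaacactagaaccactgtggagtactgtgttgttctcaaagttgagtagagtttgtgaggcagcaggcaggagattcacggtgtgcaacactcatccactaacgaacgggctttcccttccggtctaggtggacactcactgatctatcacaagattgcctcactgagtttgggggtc
The capitals mark TTCNNNGAA, the element that STAT factors bind, with its first base 140 bases before this start. The element occurs in 8.298% of promoter windows, and Irf8 is the other gene of the 10 with a match. IL-2 signals through STAT5, but a match in letters is not a bound site.

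Irf4, the factor induced by receptor signal strength, had 418, 199 and 210 CPM in the CD25-high, against 172, 116 and 158 CPM in the CD25-low libraries. Every CD25-high library was above every CD25-low library, and CD25-high library 1 was the highest of all. The log2 fold change was 0.89 ± 0.30, a 1.85-fold difference of fitted levels, with an edgeR adjusted p of 0.301. With the replicate block it was 0.82 ± 0.18, and the adjusted p of 0.0176 passed. The log2 difference was 1.28 in pair 1, 0.78 in pair 2 and 0.41 in pair 3, so Irf4 was higher in CD25-high cells in 3 of 3 pairs. Without pair 1 the call with the block was lost (0.59 ± 0.16, adjusted p 0.0943), and without pair 2 or 3 it was kept (0.0101 and 0.00214). Without CD25-high library 1 and with no block, the log2 fold change was 0.46 ± 0.22. Irf4 (chromosome 13, plus strand, 30749226 to 30766976) shares no exonic bases with another annotated gene.

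The Irf4 promoter is shown because Irf4 passed the test with the block (GRCm38.p6, plus strand, chr13:30748983-30749282).
Irf4: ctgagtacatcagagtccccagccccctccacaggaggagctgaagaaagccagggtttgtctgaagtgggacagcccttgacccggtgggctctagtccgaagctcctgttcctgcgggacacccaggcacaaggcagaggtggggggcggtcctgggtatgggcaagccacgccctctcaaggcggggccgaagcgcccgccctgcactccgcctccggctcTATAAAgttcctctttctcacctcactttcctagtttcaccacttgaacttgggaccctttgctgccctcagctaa
The capitals mark TATAAA, 26 bases before the start. The window holds no match to the AP-1 elements, to TTCNNNGAA or to the interferon-response core, a pair of GAAA runs with 2 bases between, which is found in 3.443% of windows. TATAAA was also found for Fos, Irf8 and Junb. In Junb it begins at the RefSeq start, which lies 30 bases upstream of the GENCODE start. Over the 11 windows of the 10 genes, TGANTCA and TGACGTCA had 0 matches, and the interferon-response core had 1, in Fosl2.

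Irf8, a related factor that can occupy the same composite elements and is abundant in B cells and dendritic cells, had 19.4, 8.04 and 29.0 CPM in the CD25-high, against 24.6, 19.7 and 33.005 CPM in the CD25-low libraries. It was lower in CD25-high cells in each pair, by log2 differences of -0.33, -1.24 and -0.18, but the groups overlapped. The log2 fold change was -0.45 ± 0.42 (edgeR adjusted p 0.759, and 0.279 with the block). Without CD25-high library 2 it was -0.09. The summed level of the B cell markers was 3.95 to 18.1 CPM in the CD25-high, against 12.6 to 18.1 CPM in the CD25-low libraries. Of those 10 markers, 5 had no row in the table used here, among them Cd79a, Ms4a1 and Pax5. The dendritic cell and macrophage markers summed to 37.4 to 106 CPM in the CD25-high, against 20.6 to 53.8 CPM in the CD25-low libraries, with 7 of 16 without a row, among them Flt3, Clec9a, Siglech and Spi1. Most of that sum was Itgam in CD25-high libraries 1, 2 and 3 and in CD25-low libraries 2 and 3, but not in CD25-low library 1. Without Itgam the sums were 16.3, 29.0 and 21.3 CPM in the CD25-high, against 15.5, 20.4 and 21.7 CPM in the CD25-low libraries. The CD8 T and NK cell markers summed to 5.22 to 10.5 CPM in the CD25-high, against 5.25 to 7.66 CPM in the CD25-low libraries, with no row for Cd8a and Ncr1. The part of other cell types in the Irf8 values was not tested. In these bulk libraries, fewer cells that express a gene and less RNA per cell cannot be told apart.

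**Figure D2:**
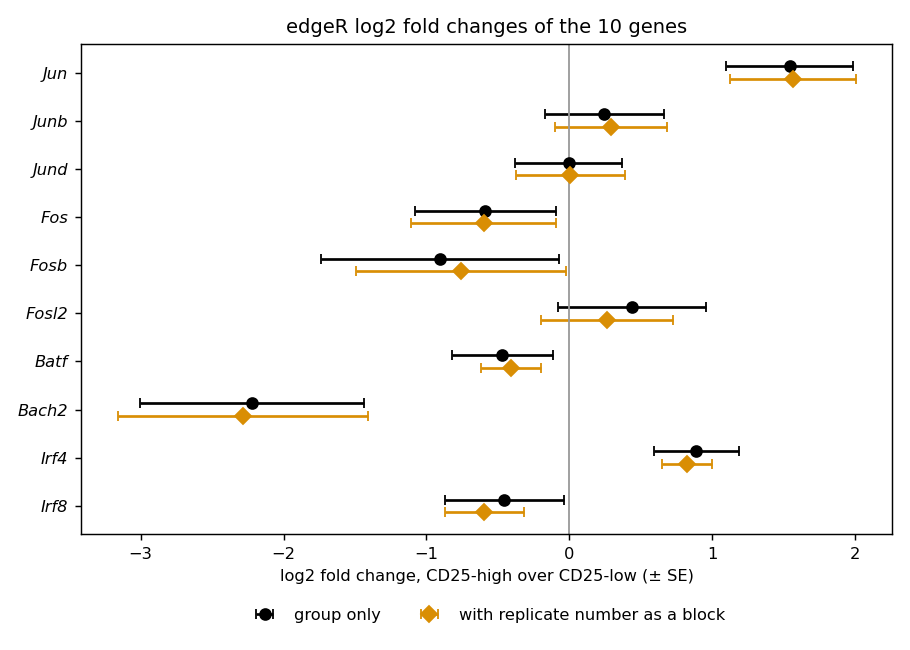
Log2 fold changes of the 10 genes, CD25-high over CD25-low, from edgeR, with bars of 1 SE. Black circles are the fit on group alone and orange diamonds the fit that adds the replicate number as a block. Jun (1.54) and Irf4 (0.89) lie to the right and Bach2 (-2.22) to the left, and the SE of Irf4 narrows to 0.18 with the block.

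Per length of transcript, Irf4 and Batf stood far above the other 8 genes in both groups. In CD25-high cells Irf4 had 56.2 ± 25.1 and Batf 38.2 ± 12.5 CPM per kilobase of exon (SD, n = 3). Jund followed at 5.21 ± 1.32, Junb at 2.84 ± 0.51, Irf8 at 2.67 ± 1.49 and Jun at 2.44 ± 0.62. Fos had 1.04 ± 0.26, Fosl2 0.598 ± 0.326, Fosb 0.224 ± 0.175 and Bach2 0.162 ± 0.142 CPM per kilobase. In CD25-low cells Batf came first at 52.9 ± 24.8, followed by Irf4 at 30.3 ± 5.97 CPM per kilobase (SD, n = 3). Next were Jund at 5.23 ± 1.51, Irf8 at 3.65 ± 0.96, Junb at 2.39 ± 0.87 and Fos at 1.56 ± 0.33. Jun (0.838 ± 0.269), Bach2 (0.752 ± 0.523), Fosl2 (0.441 ± 0.056) and Fosb (0.418 ± 0.312) were lowest.

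The ranges of Irf4 and Batf overlapped in each group, so their order is not settled by these libraries. The step from this pair down to Jund had no overlap in either group. Jun and Fos, which are neighbours in the order of both groups, stood in opposite order: Jun was above Fos in 3 of 3 CD25-high libraries and below it in 3 of 3 CD25-low libraries. The shift between them restates their opposite separations, and the order itself depends on the exon lengths used. Among 12785 tested genes with an annotated length, the mean level per length of Irf4 exceeded that of 96.6% in CD25-high and 92.4% in CD25-low cells. For Batf these shares were 94.3% in CD25-high and 96.4% in CD25-low cells, and for Jund 56.3% in each. The lowest was Bach2 in CD25-high cells, above 2.91% of genes there and above 15.6% in CD25-low cells.

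**Figure D3:**
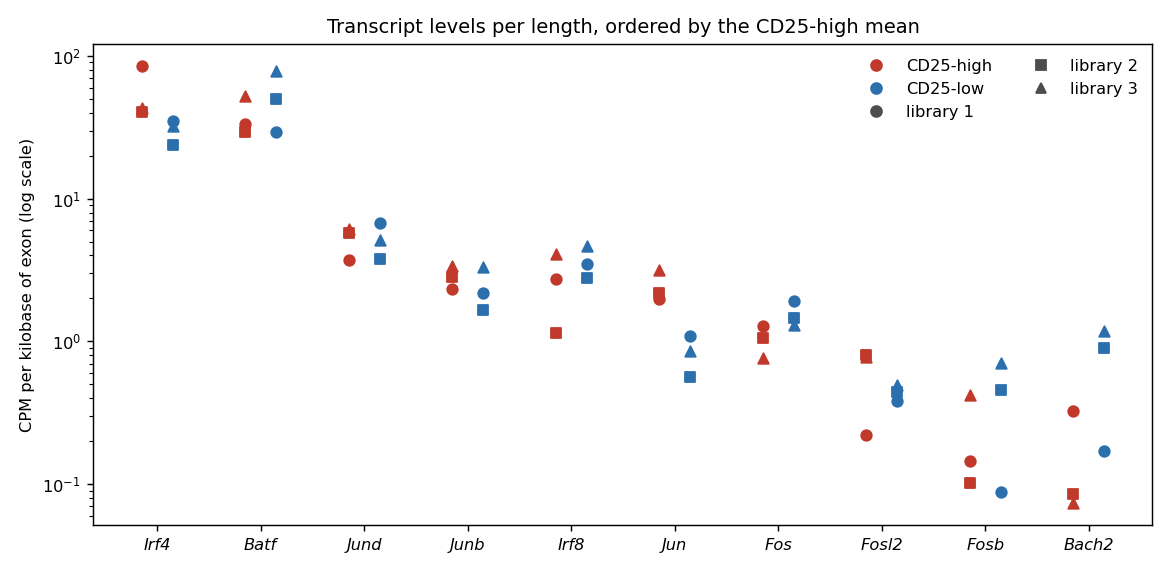
Transcript level per length of the 10 genes, in CPM per kilobase of exon on a log axis, ordered by the CD25-high mean. Red symbols are CD25-high and blue symbols CD25-low libraries. Irf4 and Batf lie above 20 CPM per kilobase in every library, and the other genes below 7.

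Ratios of transcripts within a library do not depend on the scaling between libraries, and are given here as a description chosen after the values were seen. The share of other gene pairs whose ratios separate the groups was not examined. The Irf4 to Irf8 ratio, per length, was 30.9, 35.6 and 10.4 in CD25-high libraries and 10.1, 8.47 and 6.88 in CD25-low libraries. The groups did not overlap, though CD25-high library 3 was close to CD25-low library 1. The Irf4 to Batf ratio was 2.57, 1.39 and 0.819 in CD25-high libraries and 1.19, 0.471 and 0.408 in CD25-low libraries. It was 2.16-, 2.95- and 2.01-fold higher in CD25-high cells in pairs 1, 2 and 3, while the groups as a whole overlapped.

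The Jun to Fos ratio was 1.56, 2.06 and 4.10 in CD25-high libraries and 0.569, 0.387 and 0.658 in CD25-low libraries. It was above 1 in every CD25-high library and below 1 in every CD25-low library, a position that depends on the exon lengths used. The lack of overlap follows from the separation of Jun upward and Fos downward given above, and is no further observation. The Jun to Batf ratio was 0.0600, 0.0751 and 0.0600 in CD25-high libraries and 0.0372, 0.0112 and 0.0108 in CD25-low libraries, again without overlap. The Batf to Bach2 ratio was 102, 340 and 711 in CD25-high libraries and 173, 55.7 and 66.6 in CD25-low libraries, with the order turned round in pair 1.

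**Figure D4:**
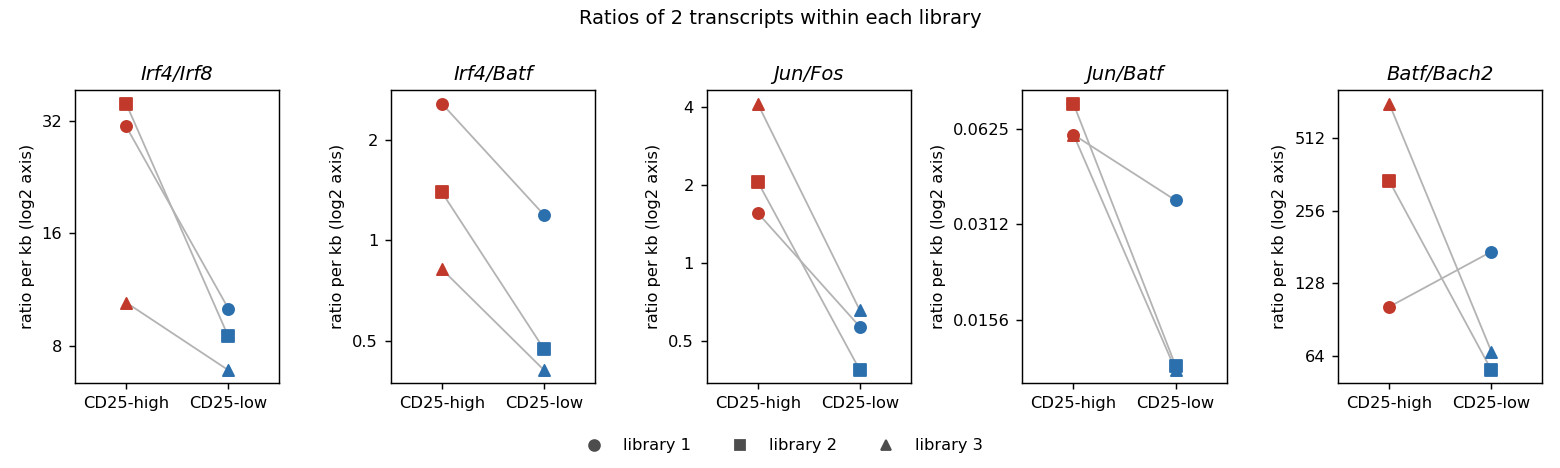
Ratios of transcripts per length within each library, on log2 axes, with CD25-high libraries in red and CD25-low libraries in blue. Symbols mark libraries 1 to 3 and grey lines join libraries of the same number. The groups do not overlap for Irf4/Irf8, Jun/Fos and Jun/Batf, and they overlap for Irf4/Batf and Batf/Bach2.

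Of 23 other bZIP factors listed, 18 were tested and 0 passed the edgeR test with or without the block. There were 3 at an unadjusted p under 0.05, against 11.1% of all tested genes, and 0 called by limma voom. The median log2 fold change was -0.05, beside 0.01 for all tested genes. The smallest p-values belonged to Mafk, a small MAF protein that pairs with BACH proteins, and Jdp2, which encodes a repressor of Jun. Mafk had 9.24, 8.09 and 7.73 CPM in the CD25-high, against 17.5, 13.8 and 16.2 CPM in the CD25-low libraries (log2 fold change -0.92 ± 0.29, edgeR adjusted p 0.267). Jdp2 had 4.36, 2.45 and 4.005 CPM in the CD25-high, against 5.30, 7.45 and 12.4 CPM in the CD25-low libraries (-1.22 ± 0.46, edgeR adjusted p 0.353). The groups did not overlap for either gene or for Maf, named after its values were seen, with CD25-high lower in each, a separation seen for 9.54% of tested genes. Batf3, a BATF relative that also pairs with Jun proteins, did not pass the low-count filter of edgeR. It had 38, 11 and 4 reads in CD25-high libraries and 0 reads in each CD25-low library. DESeq2 called it (adjusted p 0.0147), and edgeR with no filter did not (adjusted p 0.212). It was named after its values were seen.

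All 7 other IRF genes had log2 fold changes below 0, against 49.2% of all tested genes, with a median of -0.36. Of these, 0 passed the edgeR test, limma voom called 0, and 1 had an unadjusted p under 0.05, against 11.1% of all tested genes. Irf7, the interferon-induced amplifier of type I interferon, had 9.58, 10.5 and 7.73 CPM in the CD25-high, against 26.1, 17.6 and 17.5 CPM in the CD25-low libraries. Its log2 fold change was -1.14 ± 0.30 (edgeR adjusted p 0.162), it passed with the block (0.0446), and DESeq2 called it. It was the only one of the 7 called, against 2.9% of all tested genes lower with the block and 2.7% called by DESeq2. The call with the block was lost with any pair left out (adjusted p 0.0812 to 0.133). Irf4 was thus the only one of the 9 tested IRF genes with a log2 fold change above 0 in the fit on group alone and under each scaling. Without CD25-high library 1, without CD25-low library 2, or with the block without pair 1, there were 2 of 9.

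Among 18 genes of the signalling pathways upstream of AP-1, mostly kinases and small GTPases, 0 passed the edgeR test and limma voom called 0. The unadjusted p was under 0.05 for 1, against 11.1% of all tested genes, and the median log2 fold change was 0.07. Rasgrp1, the exchange factor that activates Ras downstream of the T cell receptor, was lower with the block and called by DESeq2 (62.8, 99.6 and 64.6 CPM in the CD25-high, against 110, 168 and 148 CPM in the CD25-low libraries, -0.91 ± 0.25, adjusted p 0.186, and 0.00615 with the block). It was the only 1 of the 18 called, against 2.9% of all tested genes lower with the block and 2.7% called by DESeq2.

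Of 14 tested genes listed as bound or induced by BATF with IRF4 in T cells, 2 rose in CD25-high cells and 12 did not pass, with 0.154% of all tested genes higher by the same call. At an unadjusted p under 0.05 there were 7, against 11.1% of all tested genes. DESeq2 called 3, against 2.7% of its tested genes, and limma voom called 2, against 0.724%. The groups did not overlap for 4 genes higher and 3 genes lower in CD25-high cells, against 7.41% and 9.54% of tested genes. The median log2 fold change of the list was -0.19. The list was chosen with earlier results of these data known, so its counts, with and without the block, are a description only. Prdm1, which encodes Blimp-1, had 214, 226 and 251 CPM in the CD25-high, against 51.7, 64.6 and 97.4 CPM in the CD25-low libraries (1.69 ± 0.25, edgeR adjusted p 0.0159). Il12rb2, a chain of the interleukin-12 receptor, had 546, 360 and 315 CPM in the CD25-high, against 152, 189 and 165 CPM in the CD25-low libraries (1.27 ± 0.24, edgeR adjusted p 0.0443). With the block 4 of the 14 were higher and 1 was lower, against 1.73% and 2.9% of all tested genes. Havcr2 and Entpd1 joined the higher genes (adjusted p 9.5e-05 and 0.0176) and Il21 was the lower one (0.0335), all 3 named after their values were seen. Without the block the edgeR adjusted p was 0.134 for Havcr2, 0.195 for Entpd1 and 0.738 for Il21. The call of Il21 was lost without pair 1 or 2 (adjusted p 0.0686 and 0.274), and the other two were kept with any pair left out. With no block, omitting CD25-high library 2, CD25-high library 3 or CD25-low library 2 ended the call of Prdm1 (adjusted p 0.0529, 0.103 and 0.121), at log2 fold changes of 1.71, 1.64 and 1.63. Il12rb2 lost its call in 5 of 6 such fits, all but that without CD25-high library 1 (adjusted p 0.0991 to 0.177, log2 fold change 1.20 to 1.44). With the block both were called with any pair left out.

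Of 10 tested genes listed as repressed by BACH2 in lymphocytes, Prdm1 rose, against 0.154% of all tested genes, and 9 did not pass. DESeq2 and limma voom each called 1 of the 10, Prdm1, against 2.7% and 0.724% of their tested genes. An unadjusted p under 0.05 was found for 3 of the 10, against 11.1% of all tested genes. The log2 fold change was above 0 for 9 of 10, against 50.8% of all tested genes, with a median of 0.46. The list was chosen with earlier results known, so this count is a description only. It includes genes within 1 SE of 0, such as Klrg1 (0.41 ± 0.88, 2 to 20 reads), S100a4 (0.29 ± 0.80) and Gata3 (0.20 ± 0.54, and -0.04 with the block), named after their values were seen. With the block Gzmb, which encodes granzyme B, and the transcriptional inhibitor Id2, both named after their values were seen, were higher too (adjusted p 0.000347 and 0.0225), against 1.73% of all tested genes. Without the block the edgeR adjusted p was 0.348 for Gzmb and 0.641 for Id2. Gzmb had 480, 1246 and 1250 CPM in the CD25-high, against 69.9, 498 and 413 CPM in the CD25-low libraries. The call of Gzmb with the block was kept with any pair left out, and that of Id2 was lost without pair 1 or 2 (adjusted p 0.0578 and 0.237).

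**Figure D5:**
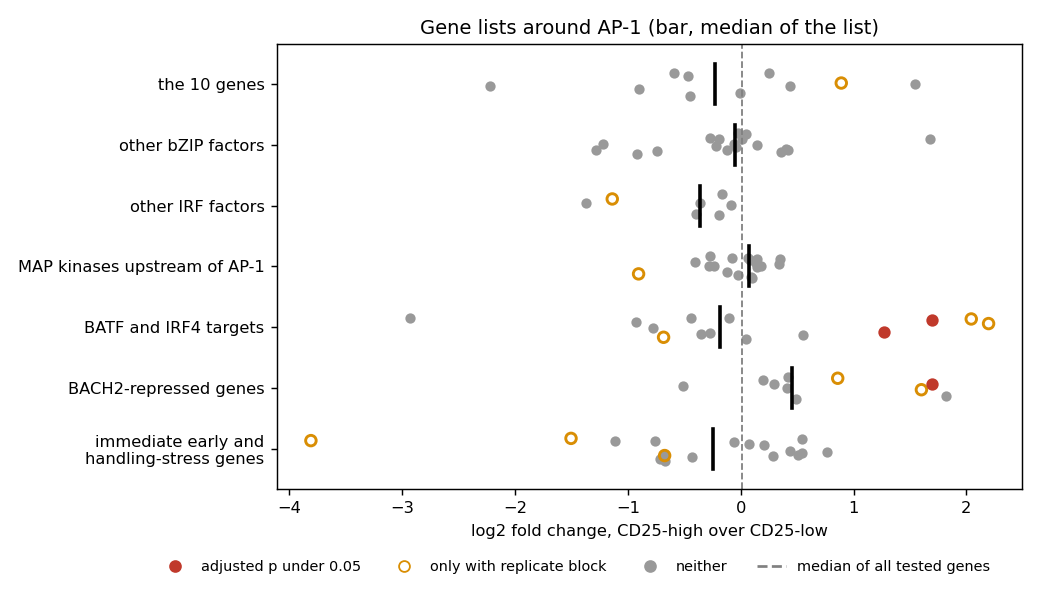
Log2 fold changes, CD25-high over CD25-low, of the tested genes of each list. Red points passed an edgeR adjusted p of 0.05, orange circles passed only with the replicate block, and grey points passed in neither fit. Black bars are list medians and the dashed line the median of all tested genes (0.01). Prdm1 stands on the list of BATF and IRF4 targets and on that of BACH2-repressed genes.

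The genes whose profiles over the 6 libraries were closest to those of Jun and Irf4, the members with the smallest p-values, were found by the root mean square difference of centred log2 CPM. For Jun these were Cd24a (0.305), Dclre1a (0.323) and Mgat4a (0.333). Cd24a, a small surface glycoprotein, had 31.9 ± 5.95 CPM in CD25-high, against 7.55 ± 1.40 CPM in CD25-low cells (n = 3 each, SD, edgeR adjusted p 0.0104). For Irf4 the nearest were Gdpgp1 (0.0768), the mitochondrial transfer RNA gene mt-Te (0.0887) and Gk, which encodes glycerol kinase (0.120). Gdpgp1 had 26.6 ± 9.37 CPM in CD25-high, against 14.1 ± 2.88 CPM in CD25-low cells (n = 3 each, SD, edgeR adjusted p 0.315). With 6 libraries and 12987 genes, close profiles are a description only.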

How the data were processed

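Per the labels' protocols, RNA of sorted splenic CD4+ T cells went into NuGEN Ovation RNA-Seq System v2 libraries. The authors deposited raw counts per Ensembl gene for 6 libraries. The submitters' processing notes list Novoalign, DESeq2 and the builds hg19 and mm10, with no roles. How reads were counted, on which annotation and with which strand setting, is not given in the sources used here. Rows with a total under 10 were absent. Symbols were matched for 15169 of 15445 identifiers. Exon lengths and coordinates came from GENCODE M21.

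edgeR 4.0.16 (R 4.3.3) was run with its quasi-likelihood F test, TMM factors, filterByExpr (minimum count 10, minimum total 15) and Benjamini-Hochberg adjustment over 12987 tested genes, with group as the only term. SE was obtained by dividing the size of the log2 fold change by the root of F. CPM uses TMM-adjusted library sizes. Differences within pairs are of log2(CPM + 0.5). Alternatives were DESeq2 1.42.0, limma 3.58.1 voom, other scaling factors and filters, omitted libraries and the replicate block. The fit was tested on simulated data. Deviations of same-numbered libraries correlated at 0.341, 0.187 and 0.157 over the 2000 most variable genes, each above the limit of 0.1. Pairing by number was therefore used on these data, with no label behind it, for the replicate block and the differences within pairs. The main fit was not paired. CD25-high library 2 and CD25-low library 3 reached 0.133.

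Members and lists were chosen with earlier results of these data known. The motifs and the ratios were chosen after sequences and values were seen. Named genes are the members, Il2ra, the called or 2 lowest-p genes of each list and, for lists of other cell types and stress, the 2 most abundant. Some genes that this rule names are not reported here. For Jun and Irf4, the members with the smallest p-values, the 3 closest profiles are named, among genes averaging 10 CPM or more. Promoters came from RefSeq (GRCm38.p6), whose table had a window for all 10 genes. Motifs were searched on both strands, and no matches overlapped.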

Additional observations from a re-analysis of the deposited data

How the results depend on the processing

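Of 12987 tested genes 85 were called, and 0 of the 10 AP-1 and partner genes. DESeq2 called 376 genes and 1 of the 10 (Jun), and the replicate block 601 genes and 1 of the 10 (Irf4). Leaving out 1 library gave 22 to 130 genes and 0 of the 10. With the replicate block and without pair 1, 2 or 3 there were 461, 486 and 536 genes and 2, 1 and 1 of the 10, namely Jun and Bach2 without pair 1 and Irf4 without pair 2 or 3. Over 18 alternatives the direction held for Jun, Junb, Fos, Fosb, Batf, Bach2, Irf4 and Irf8. Fosl2 turned only with the block without pair 2 (-0.058). Jund turned with DESeq2 (0.00026), voom (0.025), RLE (0.0020), upper-quartile factors (0.013), library size only (0.011) and the block (0.0079), ranged from -0.19 to 0.23 with 1 library left out, and was 0.43 with the block without pair 1. Among other named genes, leaving out 1 library gave -0.11 to 0.33 for Dnajb1, -1.33 to 3.21 for Eomes, -1.62 to 2.32 for Fcer2a, -1.16 to 0.40 for Cr2 and -0.33 to 0.27 for Cst3. With the block, signs turned without pair 1 for Fcer2a (-1.37) and Cst3 (0.15), without pair 2 for Dnajb1 (-0.20) and Fcer2a (-0.15), and without pair 3 for Dnajb1 (-0.21) and Cr2 (0.34). The cause was not tested. No scaling moved the median of all genes by over 0.1. Fosb, Bach2, Fos and Jun rest on 10 to 285 reads per library, which limits what can be detected for them.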

Other observations

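Marker and T cell genes that belong to no comparison above had these values. Of 9 T cell identity genes 0 passed the edgeR test and 0 were called by DESeq2 or limma voom. At an unadjusted p under 0.05 there were 2, against 11.1% of all tested genes. With the replicate block 2 were lower in CD25-high cells, against 2.9% of all tested genes. These were Cd3d and Cd3g, chains of the T cell receptor complex (adjusted p 0.0134 and 0.0135, and 0.204 and 0.279 without the block). Both calls were lost without pair 1 (0.0729 and 0.0621) and kept without pair 2 or 3. Cd3d had 60.4 ± 21.4 CPM in CD25-high, against 117 ± 13.5 CPM in CD25-low cells, and Cd3g 87.4 ± 28.4 CPM in CD25-high, against 154 ± 23.5 CPM in CD25-low cells (n = 3 each, SD). Itgam, an integrin chain on the list of dendritic cell and macrophage markers, had 21.1, 77.2 and 71.6 CPM in the CD25-high, against 5.03, 26.3 and 32.1 CPM in the CD25-low libraries. Its edgeR adjusted p was 0.433, and 0.0013 with the block, which called 1 of the 8 tested genes of that list higher, against 1.73% of all tested genes. Cd74 had 3.33 ± 1.28 CPM in CD25-high, against 1.19 ± 0.59 CPM in CD25-low cells, and Cst3 11.96 ± 5.80 CPM in CD25-high, against 12.7 ± 1.77 CPM in CD25-low cells. Of the B cell markers, Cd22 had 5.30 ± 4.33 CPM in CD25-high, against 10.4 ± 4.25 CPM in CD25-low cells, Cr2 2.41 ± 2.33 CPM in CD25-high, against 2.63 ± 0.84 CPM in CD25-low cells, and Fcer2a 2.05 ± 3.09 CPM in CD25-high, against 0.841 ± 0.779 CPM in CD25-low cells. Of the CD8 T and NK cell markers, Cd8b1 had 4.49 ± 0.91 CPM in CD25-high, against 2.05 ± 0.41 CPM in CD25-low cells. Klrd1 had 0.51 ± 0.30 CPM in CD25-high, against 1.61 ± 1.24 CPM in CD25-low cells, and Eomes 1.81 ± 2.41 CPM in CD25-high, against 1.06 ± 1.504 CPM in CD25-low cells. None of these marker genes of other cell types was called by edgeR without the block, DESeq2 or limma voom. Their lists had 3 tested CD8 T and NK cell, 3 B cell and 8 dendritic cell and macrophage genes. Of these, 3 genes had an unadjusted p under 0.05, against 11.1% of all tested genes. They were Cd8b1, Cd74 and Itgam, all higher in CD25-high cells. The groups did not overlap for Cd8b1 and Cd74, against 7.41% of tested genes in that direction. Log2 fold changes were above 0 for 2 of 3 CD8 T and NK cell, 1 of 3 B cell and 6 of 8 dendritic cell and macrophage genes. That share was 50.8% over all tested genes.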
